A study of Mus musculus with 9 samples.

Results

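The 13 mRNAs and 22 tRNAs of the mouse mitochondrial genome were followed across 9 libraries of ventral hippocampus. Members were taken by symbol alone: ND1 to ND6 with ND4L, COX1 to COX3, ATP6, ATP8 and CYTB for the mRNAs, and Trn with the amino acid letter for the tRNAs. All 35 symbols were listed in every file, among 40213 genes. The mice were wild-type C57BL/6J males, 8 weeks old when housed, and 3 mice made up each of 3 groups, named as in the labels. SED mice were sedentary and untreated. SUS mice were held in ventilated tubes for 2 h a day on 14 consecutive days and were called stress-susceptible. SUS_LE mice were called stress-susceptible after the same restraint, and then ran on a treadmill at low intensity for 2 weeks. The labels do not give the score of susceptibility, the age of the mice or the time since the last session when tissue was taken, and all 9 libraries carry batch number 1. The study thus asks what restraint stress does in this tissue and whether exercise alters it.

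As background, the mitochondrial genome is a circle read from both strands into long precursors. The heavy strand encodes the rRNAs, most tRNAs and every mRNA but ND6, and the light strand encodes ND6 and the remaining tRNAs. Because tRNA genes lie between most mRNA genes, enzymes that cut out the tRNAs also free the mRNAs. The mRNAs encode subunits of respiratory complexes I, III and IV and of the ATP synthase, on which neurons depend for synaptic ATP, and the tRNAs serve the mitochondrial ribosome.

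The tRNA genes are 59 to 75 bases long, against 204 to 1824 for the mRNAs, and they hold 17.1% to 44.9% GC against 31.9% to 41.1%. The sequences below, in DNA letters from 5′ to 3′ on the tRNA strand with the anticodon in capitals, are the 7 tRNAs that were among the 3 of smallest p in a comparison, and TrnD, the one with the lowest GC content, 17.1%. They come from GENCODE M21 transcripts (GRCm38), matched to the members through RefSeq genes of identical span.
TrnH: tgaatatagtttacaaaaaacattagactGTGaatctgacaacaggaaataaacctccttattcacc
TrnL1: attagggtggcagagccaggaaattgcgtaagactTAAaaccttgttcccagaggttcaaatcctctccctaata
TrnE: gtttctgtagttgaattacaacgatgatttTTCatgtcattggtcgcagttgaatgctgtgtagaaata
TrnM: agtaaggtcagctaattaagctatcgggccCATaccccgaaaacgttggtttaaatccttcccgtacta
TrnY: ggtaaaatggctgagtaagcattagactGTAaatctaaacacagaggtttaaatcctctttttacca
TrnT: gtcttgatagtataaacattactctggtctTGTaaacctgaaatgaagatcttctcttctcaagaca
TrnG: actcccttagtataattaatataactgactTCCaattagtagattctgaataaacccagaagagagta
TrnD: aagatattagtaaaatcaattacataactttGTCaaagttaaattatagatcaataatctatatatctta
TrnH carries histidine, TrnE glutamate, TrnM methionine, TrnY tyrosine, TrnT threonine, TrnG glycine and TrnD aspartate. TrnL1 reads the leucine codons that begin with UU, and TrnL2 the other leucine codons. TrnE and TrnY lie on the light strand and the other 6 shown on the heavy strand.

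One mRNA is shown as well because some of its bases are shared with another mRNA. ATP8 is the shortest mRNA gene, at 204 bases, and its last 43 bases, in capitals, are also the first 43 of ATP6.
ATP8: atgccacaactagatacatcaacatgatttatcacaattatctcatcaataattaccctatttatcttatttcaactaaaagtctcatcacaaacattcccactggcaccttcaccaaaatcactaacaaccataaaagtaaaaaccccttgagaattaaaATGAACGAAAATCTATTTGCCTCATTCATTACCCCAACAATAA
ND4L and ND4 share 7 bases in the same way, and ND5 and ND6 share 14 on opposite strands. The strand setting of the counts is not stated, so reads of ND6 or of a light-strand tRNA cannot be told apart from heavy-strand precursor that crosses the same bases. Nor can mature tRNAs be told apart from uncut precursors, or mitochondrial reads from those of near-identical nuclear copies, and the values of all members carry that uncertainty.

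Library totals ran from 14172344 to 15582304 counts, and levels are given as CPM, counts scaled to a library total of 1000000 with TMM factors, which correct for library composition. Of the members 34 passed the filter on low counts. TrnC did not, with 2 to 18 counts a library. Markers of hippocampal pyramidal and granule neurons summed to 5368 CPM in SUS 1 and to 4317 to 4897 in the other libraries. None of the 12 was at 0 in a library. The 20 choroid plexus markers, genes of the secretory epithelium beside the hippocampus, were uneven, at 4600.4 to 6669 CPM in SED, 169 to 8921 in SUS and 251 to 2375 in SUS_LE. The libraries SUS 1, SUS_LE 1 and SUS_LE 3 were the lowest of the 9 in Ttr, the defining marker (27.4 to 83.2 CPM, against 1509 to 6085 in the others), and 1 of the 20 markers was at 0 in some library. Red blood cell markers stood at 162 to 172 CPM in SED, 151 to 264 in SUS and 113 to 181 in SUS_LE. Median fold changes and the ratio of tRNA to mRNA counts are given with and without those 3 libraries.

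The mRNAs took 13.4, 13.3 and 13.4% of counts in SED, 12.2, 13.1 and 12.4% in SUS, and 13.9, 13.5 and 14.6% in SUS_LE. The 3 groups did not overlap on this share, with SUS lowest and SUS_LE highest. Group means were 13.3 ± 0.0693%, 12.6 ± 0.51% and 14.0 ± 0.569% (SD, n = 3). The tRNAs together took far less, 0.00963% in SUS_LE 1 (95% exact binomial interval 0.00913% to 0.0101%) to 0.0219% in SUS 1 (0.0211% to 0.0226%). Such intervals cover counting error only. In bulk tissue fewer cells rich in mitochondria and less mitochondrial RNA per cell cannot be told apart.

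Per length, the mean level over the 9 libraries ran from 22269 CPM per kilobase for ATP6 to 311 for ND6. COX1 (19222), COX2 (17688) and ATP8 (16422) followed ATP6, then COX3 (13478), ND1 (12792), CYTB (11886), ND4 (10544), ND2 (8952), ND4L (8106), ND5 (4770.1) and ND3 (4286). The complex IV and ATP synthase mRNAs thus led and complex I mRNAs trailed. Between neighbours in this order, ATP6 was above COX1 in 9 of 9 libraries, but COX1 was above COX2 in 8, COX2 above ATP8 in 7, ATP8 above COX3 in 8, COX3 above ND1 in 7 and ND1 above CYTB in 8. From CYTB down to ND6 every neighbour pair kept its order in 9 of 9. The heavy-strand mRNAs had a median level 39.7 times that of ND6 per length, and 137 times that of the tRNAs. How well the libraries recovered RNAs as short as the tRNAs (59 to 75 bases) was not tested. The ratios of tRNAs to mRNAs given here thus compare counts and not amounts of RNA. TrnV (223 CPM per kilobase) and TrnW (222) were the highest tRNAs and TrnC (7.99) the lowest, and the median was 119 for heavy-strand tRNAs against 55.6 for those of the light strand.

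The spread between mice of a group differed by class. The coefficient of variation within groups was 2.71% for CYTB to 8.37% for ND1 among the heavy-strand mRNAs, 20.1% for ND6, and 10.8% for TrnM to 80.6% for TrnS2 among the tRNAs, with a median of 25.6%. Counting error alone would give a median of 0.255% for the mRNAs and 11.4% for the tRNAs. All 13 mRNAs and 9 of 22 tRNAs were spread at least 2 times as widely as counting error, and 1 tRNA less widely than it. TrnD was the clearest case among the better counted tRNAs. Its counts were 151, 144 and 138 in SED, 221, 40 and 80 in SUS, and 27, 38 and 122 in SUS_LE. The SUS and SUS_LE libraries thus scattered over an 8.22-fold range of CPM, with SED within it and narrow.

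**Figure D1:**
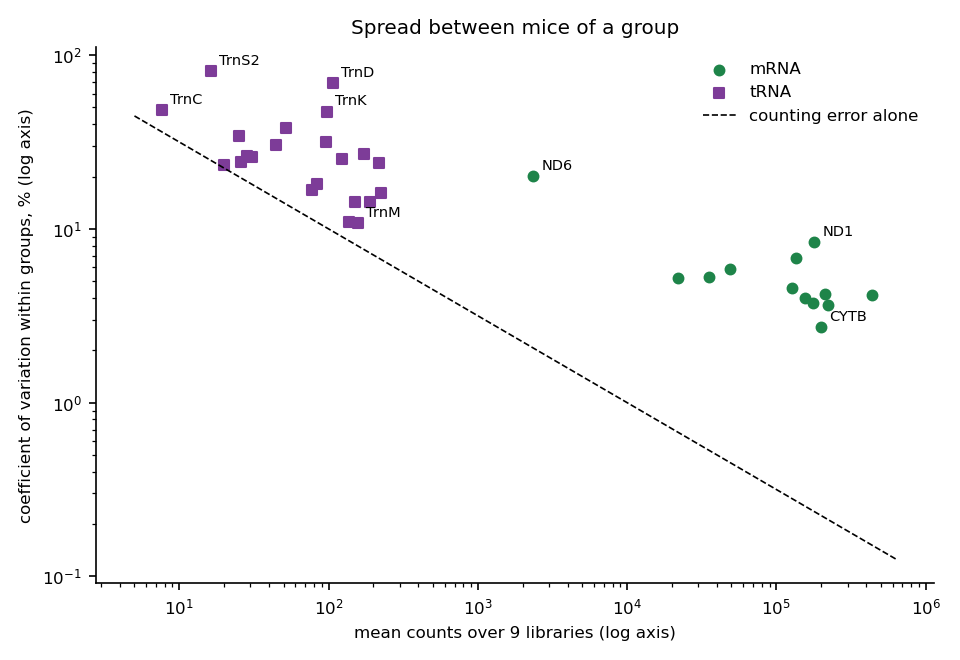
Coefficient of variation within groups (percent, log axis) against mean counts over 9 libraries (log axis) for the 13 mRNAs and 22 tRNAs; the dashed line is the value counting error alone would give. TrnS2 (80.6%) and TrnD lie highest, and all mRNAs stand well above the line.

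The 7 complex I mRNAs encode membrane subunits of NADH dehydrogenase. ND1 stood at 12328, 12352 and 12289.9 CPM in SED, 10190.4, 12679 and 10617 in SUS, and 12750.0, 12479.7 and 14487 in SUS_LE. In SED the 3 values lay close together, while SUS 2 stood above and the other SUS libraries below them, and all SUS_LE values lay above SED. ND2 stood at 9746, 9158 and 9362 CPM in SED, 8577, 9371 and 8287 in SUS, and 9082, 9284 and 10757 in SUS_LE. ND3 stood at 1529, 1463 and 1398 CPM in SED, 1481, 1497 and 1383 in SUS, and 1498, 1499 and 1677 in SUS_LE. Both overlapped between SED and the other groups, and ND3 lay higher in SUS_LE than in SUS by a narrow gap. For ND4L the values were 2386, 2346 and 2599 CPM in SED, 2227, 2425 and 2129.9 in SUS, and 2433, 2538 and 2584 in SUS_LE. Its neighbour ND4 had 14999, 14499 and 14791 CPM in SED, 12538, 14030.3 and 13214 in SUS, and 15219, 15135 and 16346 in SUS_LE. For ND4 every SUS value lay below and every SUS_LE value above all SED values, and for ND4L SUS_LE lay above SUS alone. The ND5 values were 8811, 8807 and 9013 CPM in SED, 7863, 8749 and 8006 in SUS, and 8854, 8659 and 9545 in SUS_LE. ND5 was lower in SUS than in SED without overlap, though by little at SUS 2. ND6, the only mRNA of the light strand, had 176, 158 and 135 CPM in SED, 247, 156 and 139 in SUS, and 149.7, 141 and 151 in SUS_LE. SUS 1 stood apart for ND6, and the other 8 libraries ran together.

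CYTB is the only complex III subunit in the genome and carries both hemes b. Its level was 13236, 13373 and 13558 CPM in SED, 12543, 13169 and 12674 in SUS, and 14359, 14235 and 15233 in SUS_LE, so that the groups did not overlap, SUS lowest and SUS_LE highest. COX1, the catalytic subunit of cytochrome c oxidase (complex IV), had 29317, 29803 and 30097 CPM in SED, 25807, 29275 and 27564 in SUS, and 31559.5, 30928 and 32924 in SUS_LE. The groups again did not overlap. COX2, which takes electrons from cytochrome c, had 11929.6, 11898 and 11702 CPM in SED, 11697, 12250.5 and 11159 in SUS, and 12730.0, 12209.8 and 13314 in SUS_LE. COX3, a structural subunit, had 9924, 10414 and 10305 CPM in SED, 11225, 10398 and 10103 in SUS, and 10885, 10547 and 11301 in SUS_LE. COX2 and COX3 overlapped between SUS and both other groups, and in each the SUS_LE values lay above all SED values.

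Both ATP synthase mRNAs encode subunits of its stator in the inner membrane. ATP6, which forms the proton path, had 15348, 14901 and 14929 CPM in SED, 13962, 14676 and 13619 in SUS, and 16217, 15658 and 17175 in SUS_LE. ATP8 had 3432, 3292 and 3578 CPM in SED, 2872, 3084 and 2804 in SUS, and 3489, 3573 and 4028 in SUS_LE. For ATP6 the 3 groups did not overlap, and for ATP8 SUS lay below both other groups, which overlapped.

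**Figure D2:**
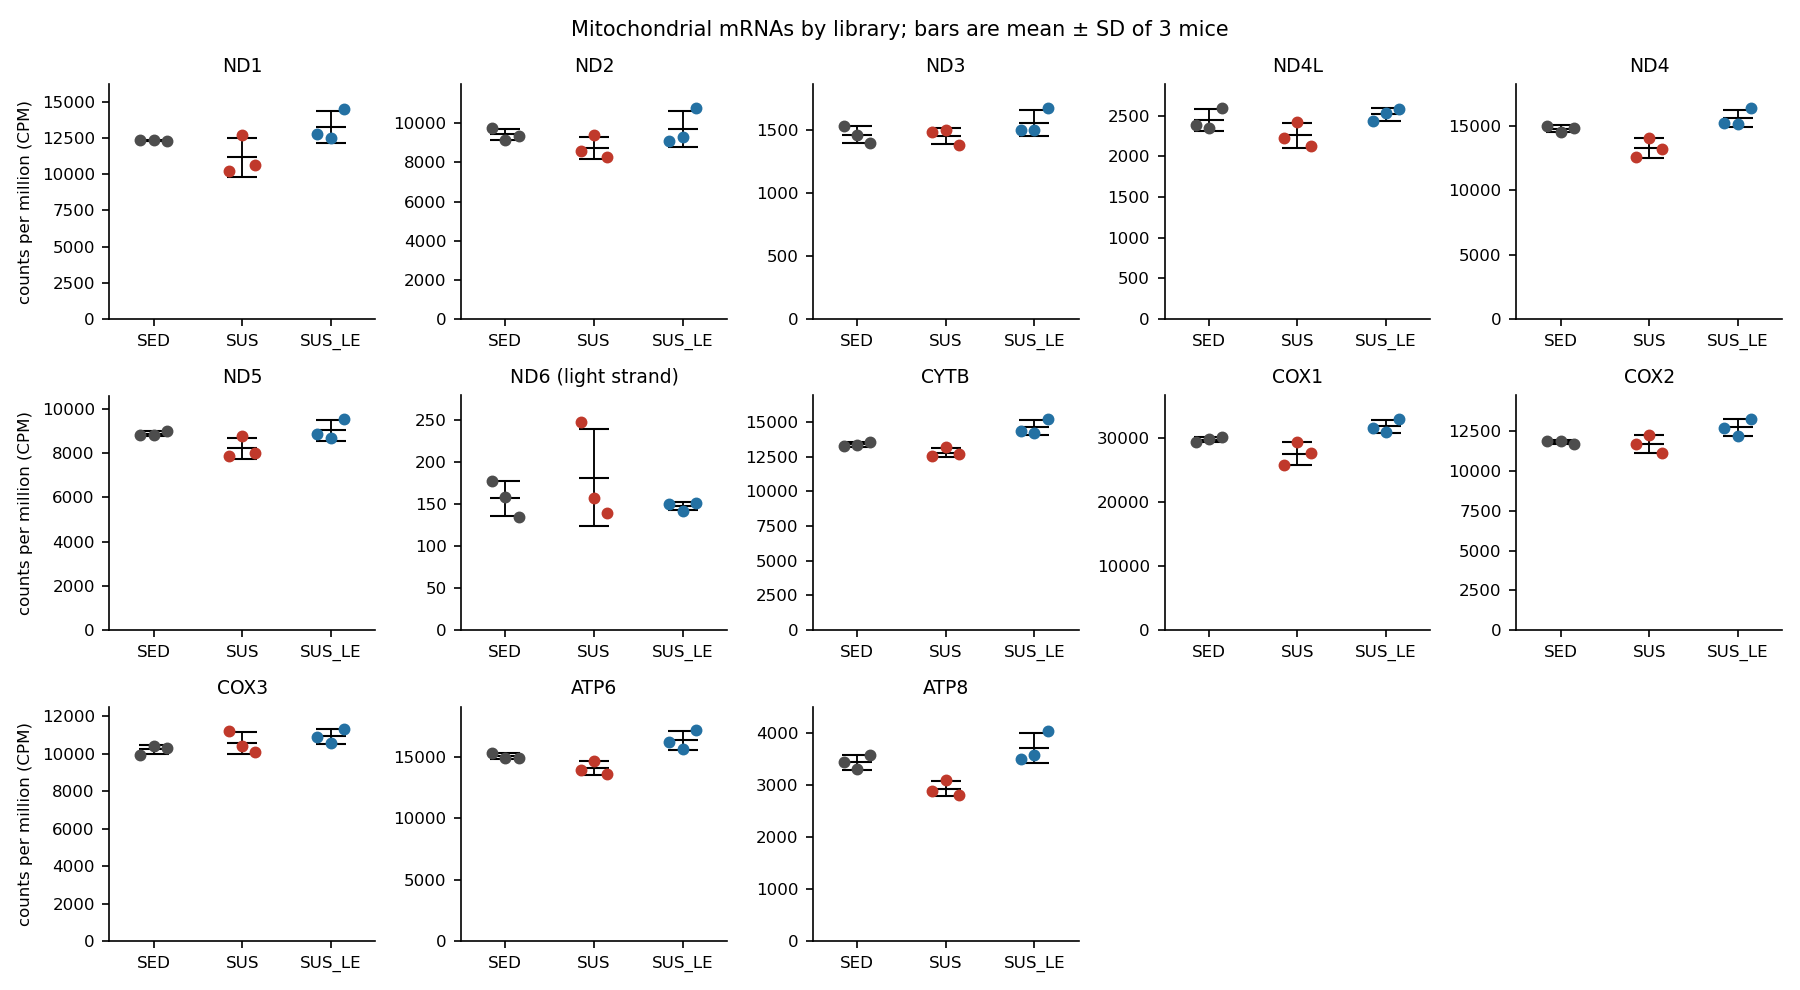
Level of each mitochondrial mRNA in CPM (vertical axes from 0) in the 9 libraries, 3 mice a group; bars give mean ± SD. SUS values of ATP8, ATP6, COX1, CYTB and ND4 lie below those of both other groups, and ND6 has 1 high SUS library.

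The 5 tRNAs with the most counts stood far lower. TrnV, for valine, had 17.0, 17.1 and 12.4 CPM in SED, 19.6, 18.9 and 13.5 in SUS, and 12.3, 12.8 and 14.7 in SUS_LE. TrnW, for tryptophan, had 17.1, 14.9 and 12.9 CPM in SED, 22.2, 16.4 and 15.6 in SUS, and 8.08, 10.9 and 15.7 in SUS_LE. TrnL1 had 11.7, 12.7 and 11.7 CPM in SED, 18.1, 15.5 and 13.6 in SUS, and 10.4, 9.87 and 14.0 in SUS_LE. In all 3, SUS 1 was the highest library. TrnG had 14.9, 13.8 and 10.9 CPM in SED, 18.6, 10.9 and 11.6 in SUS, and 7.05, 7.34 and 11.9 in SUS_LE. TrnM, the tRNA that also starts mitochondrial translation, had 11.3, 10.7 and 10.5 CPM in SED, 12.4, 14.0 and 11.0 in SUS, and 9.45, 7.73 and 10.1 in SUS_LE. Of the 22 tRNAs 21 were at their highest in SUS 1, and TrnM in SUS 2. The lowest library was SUS_LE 1 for 11 tRNAs, SUS_LE 2 for 6, SED 3 for 4 and SED 2 for 1. For the mRNAs the highest was SUS_LE 3 for 11 of 13, and the lowest SUS 3 for 6 and SUS 1 for 5. Thus SUS 1, the highest for the tRNAs and ND6, was the lowest for several heavy-strand mRNAs.

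**Figure D3:**
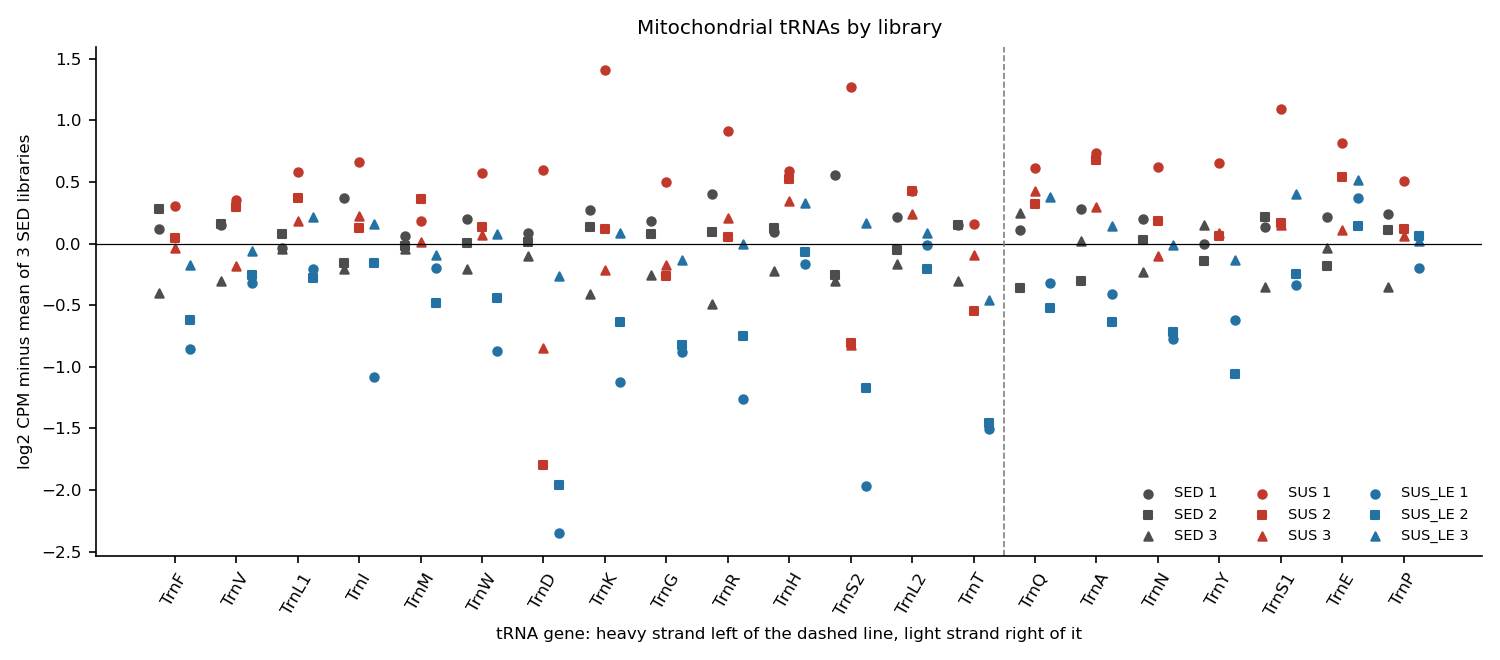
Level of the 21 tested tRNAs in each library, as log2 CPM minus the mean of the 3 SED libraries (vertical axis); colour is the group and symbol the mouse. SUS 1 is the highest point for 20 of these 21, TrnM being the exception, and SUS_LE 1 and SUS_LE 2 are mostly lowest, with TrnD, TrnS2 and TrnT reaching farthest down.

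Restrained mice were first compared with sedentary controls. In SUS 11 of 13 mRNAs had lower values than in SED, with a median log2 fold change of −0.11, while 19 of 21 tested tRNAs had higher values, with a median of 0.30. Single mRNAs ran from −0.23 (ATP8) to 0.21 (ND6) and tRNAs from −0.35 (TrnD) to 0.60 (TrnA). Of all 16106 genes tested 8033 were higher and 8073 lower, with a median of −0.000386. By edgeR's quasi-likelihood test with Benjamini-Hochberg adjustment over all genes tested, 0 of 34 members passed 0.05, as did 0% of all genes. At an unadjusted p under 0.05 there were 2 mRNAs, both lower, and 4 tRNAs, all higher, against 13.1% of all genes (6.83% higher, 6.26% lower). Groups did not overlap for 6 mRNAs, all lower, and 5 tRNAs, all higher, against 18.3% of all genes (9.72% higher, 8.56% lower).

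Of the mRNAs ATP8 had the smallest p. Its level was 3434 ± 143 CPM in SED, 2920.1 ± 146 in SUS and 3697 ± 289.9 in SUS_LE (SD, n = 3), and its log2 fold change of SUS against SED was −0.23 (SE 0.07, edgeR adjusted p = 0.169). For ND4 the fold change was −0.15 (SE 0.06, edgeR adjusted p = 0.299). ND1 had −0.14 (SE 0.08, edgeR adjusted p = 0.453) and ND5 −0.11 (SE 0.06, edgeR adjusted p = 0.463). DESeq2 passed 2 of the 13 mRNAs that had a DESeq2 adjusted p, ATP8 (0.0113) and ND4 (0.0469), both lower, against 3.35% of genes with one (1.64% higher, 1.71% lower). DESeq2 passed 0 members without SED 1 (0.218% of genes with an adjusted p) or SED 3 (0.856%), and 6 without SUS 2 (5.6%). ND6 went the other way at 0.21 (SE 0.23, edgeR adjusted p = 0.757), and its value was −0.08 without SUS 1.

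Among the tRNAs TrnH stood at 9.55, 9.74 and 7.64 CPM in SED, 13.5, 12.9 and 11.4 in SUS, and 7.94, 8.51 and 11.2 in SUS_LE. All 3 SUS values lay above SED, and the log2 fold change was 0.49 (SE 0.14, edgeR adjusted p = 0.176). TrnL1 had 0.39 (SE 0.14, edgeR adjusted p = 0.231) and TrnE 0.52 (SE 0.19, edgeR adjusted p = 0.252). The 5 tRNAs whose groups did not overlap were TrnL1, TrnL2, TrnH, TrnA and TrnQ. By strand, 7 of 7 tested light-strand tRNAs were higher (median 0.47), and 12 of 14 of the heavy strand (median 0.24). The tRNA median was 0.09 without SUS 1, 0.14 with the choroid plexus score as a covariate and 0.09 without the 3 libraries low in Ttr, where the mRNA median was −0.08. In the same comparison 19 of 20 choroid plexus markers had lower values (median −0.40, 0 passed), 5 of 5 red blood cell markers higher (median 0.38), and 8 of 8 oligodendrocyte markers lower (median −0.18). Of the 8 astrocyte markers 4 were higher and 4 lower (median −0.02). Of the 12 hippocampal neuron markers 8 were higher and 4 lower (median 0.08, from −0.41 to 0.62). The part of all these markers in the result was not tested.

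The next comparison set exercised restrained mice against restrained mice. Here 12 of 13 mRNAs had higher values in SUS_LE, with a median log2 fold change of 0.16, and 21 of 21 tested tRNAs had lower values, with a median of −0.64. Single mRNAs ran from −0.30 (ND6) to 0.34 (ATP8) and tRNAs from −1.11 (TrnK) to −0.17 (TrnE). Of all genes tested 8105 were higher and 8001 lower, with a median of 0.00112. By edgeR 0 of 34 members passed, as did 0% of all genes. At an unadjusted p under 0.05 there were 8 mRNAs, all higher, and 14 tRNAs, all lower, against 13.7% of all genes (7.2% higher, 6.49% lower). Groups did not overlap for 7 mRNAs and 8 tRNAs, against 17% of all genes (8.61% higher, 8.38% lower). SUS is the control here and the treated group in the comparison above, so the opposite signs of the 2 rest in part on the same 3 libraries.

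ATP8 again had the smallest p, with a log2 fold change of 0.34 (SE 0.07, edgeR adjusted p = 0.0922). ND4 followed with 0.23 (SE 0.06, edgeR adjusted p = 0.138), ATP6 with 0.22 (SE 0.06, edgeR adjusted p = 0.148) and COX1 with 0.21 (SE 0.06, edgeR adjusted p = 0.171). DESeq2 passed 6 of 13 mRNAs, all higher, against 3.28% of genes with a DESeq2 adjusted p (1.95% higher, 1.33% lower): ATP8 (2.63e-05), ATP6, ND4 and CYTB (0.00167 each), COX1 (0.00645) and ND1 (0.0298). Without each library in turn DESeq2 passed 5 to 10 members and 1.05% to 8.17% of genes, both highest without SUS 2, and ATP8, ATP6, COX1, CYTB and ND4 were among them each time. With edgeR 1 mRNA passed without SUS 1 (ATP8, with 0.508% of all genes) and 3 without SUS 2 (ATP8, ND1 and ND4, with 1.12%). ND6 had −0.30 (SE 0.23, edgeR adjusted p = 0.618). COX3 had the smallest difference of the heavy-strand mRNAs at 0.05 (SE 0.06), a value singled out after it was seen.

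The 3 tRNAs of smallest p were TrnM, TrnL1 and TrnY. TrnM stood at 10.9 ± 0.398 CPM in SED, 12.5 ± 1.53 in SUS and 9.11 ± 1.24 in SUS_LE (SD, n = 3), and its log2 fold change was −0.45 (SE 0.13, edgeR adjusted p = 0.148). TrnL1 had −0.46 (SE 0.14, edgeR adjusted p = 0.152). TrnY stood at 2.18, 1.96 and 2.43 CPM in SED, 3.51, 2.29 and 2.33 in SUS, and 1.37, 0.974 and 1.97 in SUS_LE, and its log2 fold change was −0.91 (SE 0.29, edgeR adjusted p = 0.177). All SUS_LE values of TrnM and TrnY lay below all SUS values, and those of TrnL1 overlapped. Light-strand tRNAs had a median of −0.60 (7 of 7 lower) and heavy-strand tRNAs of −0.65 (14 of 14 lower). DESeq2's own filter left the tRNAs without an adjusted p in this comparison. Without that filter it passed 0 tRNAs and 5 mRNAs, with 0.453% of genes. The tRNA median ranged from −0.44 without SUS 1 to −0.94 without SUS_LE 3, and without the 3 libraries low in Ttr the medians were 0.10 for mRNAs and −0.58 for tRNAs, where SUS_LE keeps 1 library whose spread is assumed to be that of the others.

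Other measures differed in the same comparison. All 20 choroid plexus markers had lower values in SUS_LE than in SUS (median −2.09, 0 passed) and 5 of 5 red blood cell markers as well (median −0.62), while 6 of 8 astrocyte markers (median 0.08) and 7 of 8 oligodendrocyte markers (median 0.13) had higher values. Astrocyte markers summed to 5348 to 5635 CPM in SED, 4975 to 5167 in SUS and 5440.0 to 5669 in SUS_LE, with SUS below both other groups. Most of this sum was Slc1a2 alone, at 3515 to 4110 CPM. Single astrocyte markers were split in SUS against SED, 4 of 8 higher and 4 lower. Of the 12 hippocampal neuron markers 6 were higher and 6 lower in SUS_LE against SUS (median −0.0029). Fold changes across genes also followed base composition. The 884 nuclear genes with under 40% GC had a median of 0.10 for SUS_LE against SUS and −0.10 for SUS against SED, against −0.00366 and 0.00556 for the other nuclear genes. After removal of trends with GC content and length in each library the mRNA medians were 0.11 and −0.06, and the tRNA medians −0.73 and 0.30. For SUS_LE against SUS, ATP8 then had 0.27, ND1 0.16, ATP6 0.13, ND4 and COX1 0.12 each, CYTB 0.11 and COX3 −0.03. The part of the marker genes in these values was not tested.

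**Figure D4:**
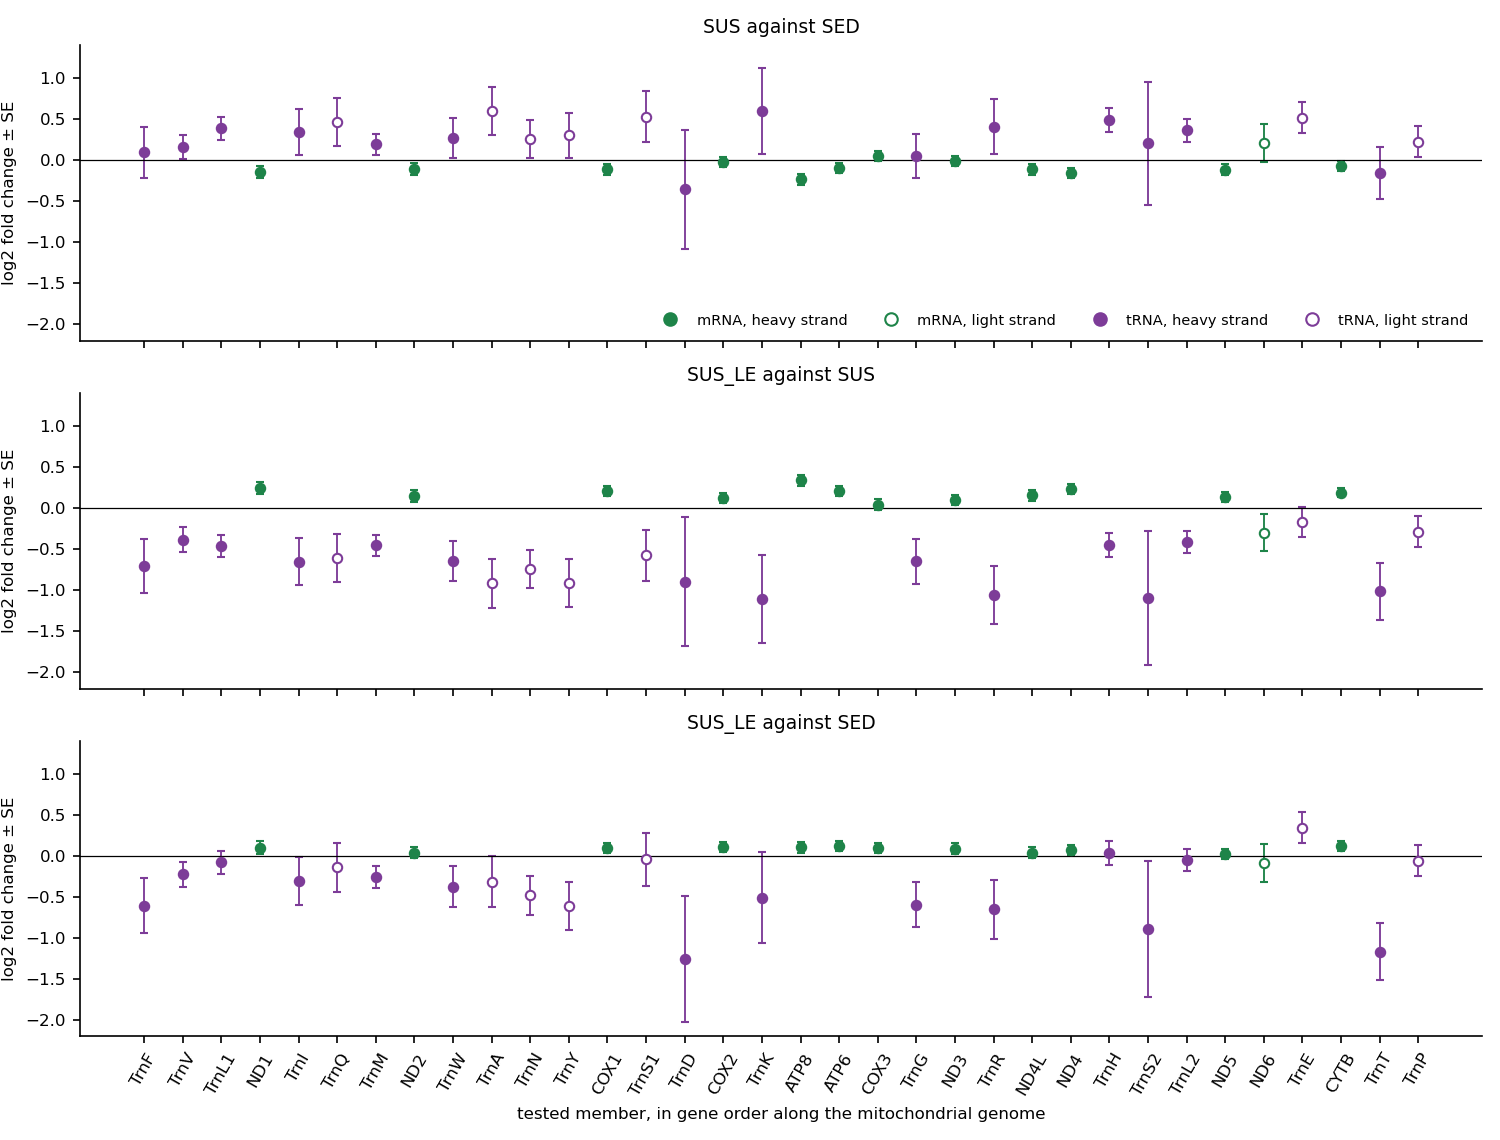
Log2 fold change ± SE (edgeR) of the 34 tested members in gene order, for each of the 3 comparisons; green marks mRNAs, purple tRNAs, and open circles the light strand. The heavy-strand mRNAs lie close to 0 with small errors and mostly opposite in sign to the tRNAs, ND6 has a wider error (SE 0.23), and TrnD, TrnK and TrnS2 have the widest errors.

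Exercised restrained mice were also set against sedentary controls. In SUS_LE 12 of 13 mRNAs had higher values than in SED (median log2 fold change 0.10), and 19 of 21 tRNAs lower values (median −0.31), beside a median of 0.01 over all genes tested, of which 8525 were higher. Single tRNAs ran from −1.25 (TrnD) to 0.35 (TrnE). By edgeR 0 of 34 members passed, as did 0% of all genes, and DESeq2 passed 0 members and 0.0994% of genes (0.0124% higher, 0.087% lower). At an unadjusted p under 0.05 there were 1 mRNA (CYTB) and 1 tRNA (TrnT), against 6.64% of all genes (2.79% higher, 3.86% lower). Groups did not overlap for 7 mRNAs, all higher, and 3 tRNAs, all lower, against 16.2% of all genes (7.54% higher, 8.64% lower). CYTB had 0.13 (SE 0.06, edgeR adjusted p = 0.746), ATP6 0.12 (SE 0.06, edgeR adjusted p = 0.767), COX2 0.11 (SE 0.06, edgeR adjusted p = 0.794), ATP8 0.11 (SE 0.07, edgeR adjusted p = 0.817) and ND6 −0.09 (SE 0.23, edgeR adjusted p = 0.974). None of these mRNAs differed by more than 0.13 on the log2 scale. TrnT stood at 2.46, 2.45 and 1.76 CPM in SED, 2.47, 1.46 and 2.06 in SUS, and 0.684, 0.715 and 1.57 in SUS_LE, on 10 to 36 counts a library. Its log2 fold change was −1.16 (SE 0.35, edgeR adjusted p = 0.46), TrnY had −0.61 (SE 0.30, edgeR adjusted p = 0.757) and TrnG −0.59 (SE 0.28, edgeR adjusted p = 0.766). The median was 0.04 for mRNAs and −0.59 for tRNAs without SUS_LE 3, and −0.19 for tRNAs without SED 1. Without the 3 libraries low in Ttr, where SUS_LE keeps 1 library, the medians were 0.0447 for mRNAs and −0.54 for tRNAs, and with the choroid plexus score as a covariate 0.0673 and −0.62. All 20 choroid plexus markers had lower values in SUS_LE than in SED (median −2.56, 0 passed, 6 at an unadjusted p under 0.05). Red blood cell markers were lower in 5 of 5 (median −0.21), oligodendrocyte markers lower in 6 of 8 (median −0.05) and astrocyte markers higher in 6 of 8 (median 0.07). Hippocampal neuron markers were higher in 8 of 12 (median 0.04). Their part in the result was not tested.

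The test for any difference among the 3 groups by edgeR passed 0 of 34 members and 0% of all genes. Its unadjusted p was under 0.05 for 6 mRNAs and 10 tRNAs, against 13.5% of all genes, and smallest for ATP8 (adjusted p = 0.133) and TrnH (0.2). DESeq2 passed 5 mRNAs, ATP8, ND4, ATP6, COX1 and CYTB, against 3.97% of genes with a DESeq2 adjusted p.

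The classes were then compared within each library, which needs no scaling between libraries. The tRNA counts per 10000 mRNA counts were 11.9, 11.0 and 9.20 in SED, 18.0, 11.9 and 11.6 in SUS, and 6.95, 7.42 and 9.84 in SUS_LE. SUS_LE lay below SUS without overlap, and SED overlapped both. The means were 10.7 ± 1.37, 13.8 ± 3.61 and 8.07 ± 1.55 (SD, n = 3), and SUS 1 held the highest value. As log2 ratios of tRNA to mRNA counts the means were −9.88 ± 0.19, −9.53 ± 0.36 and −10.29 ± 0.27. Without the libraries low in Ttr they were −9.73 in SUS (2 libraries) and −10.40 in SUS_LE (1 library). Over all members the log2 ratio of heavy to light strand counts was 9.49 ± 0.20 in SED, 9.18 ± 0.45 in SUS and 9.67 ± 0.02 in SUS_LE. It follows ND6, which holds 83.2% of light-strand counts. ND6 counts per 1000 counts of the 12 heavy-strand mRNAs were 1.33, 1.19 and 1.01 in SED, 2.04, 1.19 and 1.15 in SUS, and 1.08, 1.03 and 1.01 in SUS_LE, and the groups overlapped.

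The strands were also compared within the tRNAs. Light-strand tRNA counts per 100 heavy-strand tRNA counts were 27.7, 26.0 and 27.5 in SED, 30.9, 30.4 and 29.1 in SUS, and 33.3, 30.8 and 30.5 in SUS_LE. All 6 libraries of restrained mice lay above all 3 SED libraries, by a narrow gap (29.1 in SUS 3 against 27.7 in SED 1). SUS and SUS_LE overlapped. The means were 27.1 ± 0.91, 30.1 ± 0.933 and 31.5 ± 1.53 (SD, n = 3). Without TrnV and TrnN, the most counted tRNA of each strand, the log2 ratio of heavy to light was 2.16 ± 0.04, 1.96 ± 0.05 and 1.79 ± 0.14, and the SED libraries still lay apart from the others. TrnD stayed in the heavy-strand sums, with 138 to 151 counts in SED. It had 221, 40 and 80 counts in SUS and 27, 38 and 122 in SUS_LE. Heavy-strand tRNA counts were 1427 to 1766 in SED, 1594 to 2422 in SUS and 1061 to 1656 in SUS_LE. The ratio without TrnD was not computed, and whether SED lies apart without it was not tested. Light-strand tRNA counts were 353 to 749 a library. The counting error of the ratio was not computed either, and it may be as wide as the gap between SED and the others. The 3 libraries low in Ttr had 30.9 (SUS 1), 33.3 (SUS_LE 1) and 30.5 (SUS_LE 3) light per 100 heavy counts. The other restrained libraries had 30.4 (SUS 2), 29.1 (SUS 3) and 30.8 (SUS_LE 2). The part of choroid plexus content in this ratio was not tested. A sum over members chosen with results known has no test here.

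**Figure D5:**
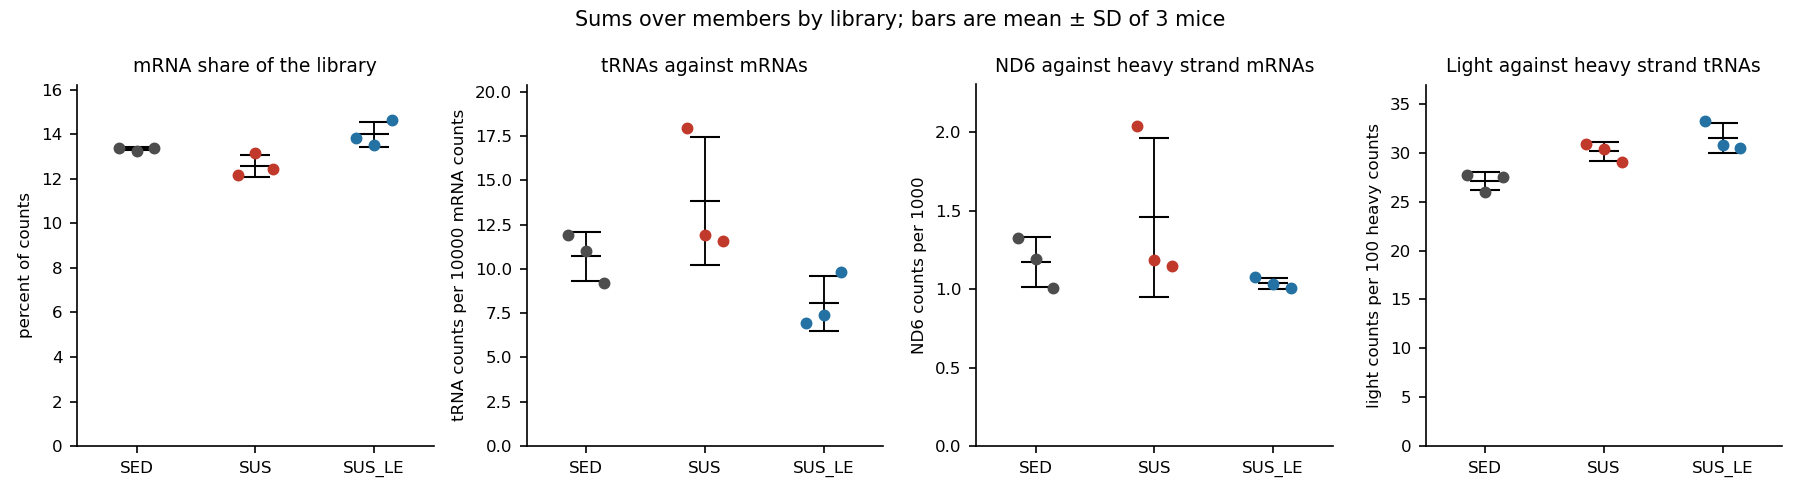
Sums over members by library (vertical axes from 0), with mean ± SD of 3 mice: percent of counts on mRNAs, tRNA counts per 10000 mRNA counts, ND6 counts per 1000 heavy-strand mRNA counts, and light per 100 heavy-strand tRNA counts. In the last panel the SED libraries (26.0 to 27.7) lie below the other 6 (29.1 to 33.3), with TrnD in the sums and counting error not shown.

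Neighbours on one precursor did not keep a fixed ratio. ATP8, ATP6 and COX3 follow each other with no tRNA between them. ATP8 counts per 100 ATP6 counts were 22.4, 22.1 and 24.0 in SED, 20.6, 21.0 and 20.6 in SUS, and 21.5, 22.8 and 23.5 in SUS_LE. The SUS libraries lay below all others. COX3 counts per 100 ATP6 counts were 64.7, 69.9 and 69.0 in SED, 80.4, 70.8 and 74.2 in SUS, and 67.1, 67.4 and 65.8 in SUS_LE, and here the SUS libraries lay above all others, SUS 1 the most. How reads in the 43 bases shared by ATP8 and ATP6 were counted is not given in the sources used here. For ND4L against ND4 the groups overlapped, at 15.8 to 17.8 per 100 over the 9 libraries. These ratios follow gene order, but in part they restate the fold changes above. Of the heavy-strand mRNAs ATP8 had the lowest and COX3 the highest value in SUS against SED. No test was made on the ratios.

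Nuclear genes that make, cut, charge and modify these RNAs gave no passing member by edgeR in the 6 lists and 3 comparisons, and DESeq2 passed 2 (both of the nuclear respiratory chain, lower in SUS_LE than in SUS). Of the 20 genes of mitochondrial transcription and replication 10, 13 and 12 were higher in the 3 comparisons in the order above. The smallest p were those of Rnaseh1 (−0.37 and 0.26 in the first 2 comparisons), which removes RNA from RNA-DNA hybrids, of the elongation factor Tefm (−0.36 and 0.28), and in the third of the transcription factor Tfb2m (0.14) and the methyltransferase Tfb1m (−0.24). Of the 26 genes of RNA processing and stability 15, 13 and 19 were higher. Prorp (0.39 in SUS against SED), the nuclease of mitochondrial RNase P that cuts tRNAs free at their 5′ end, and Tbrg4 (0.19) had the smallest p there. Mtpap, the mitochondrial poly(A) polymerase, had 0.23 and 0.17 in the comparisons of SUS_LE with SUS and with SED, the exonuclease Pnpt1 0.23 in the former and Fastkd5 0.26 in the latter. The adjusted p of these genes ran from 0.221 to 0.869.

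Of the 21 genes of tRNA charging 9, 13 and 14 were higher. Lars2, which charges both leucine tRNAs, stood at 1344, 1509 and 1440.0 CPM in SED, 1149.9, 1026 and 1064 in SUS, and 1294, 1285 and 1758 in SUS_LE. SUS lay below both other groups without overlap. Its log2 fold changes were −0.41 (edgeR adjusted p = 0.197) in SUS against SED and 0.42 (0.169) in SUS_LE against SUS. Its mean of 1319 CPM was far above the next of the list, Iars2 at 51.2 CPM. Whether all reads counted for Lars2 came from its mRNA was not tested. The valine synthetase Vars2 had 0.21, −0.39 and −0.19 in the 3 comparisons and the phenylalanine synthetase Fars2 −0.22 in SUS_LE against SED. Of the 19 genes of tRNA modification 12, 9 and 11 were higher. Trmt1, which methylates a guanosine, had 0.18 and −0.19 in the first 2 comparisons, the queuosine enzyme subunits Qtrt2 −0.23 in SUS against SED and Qtrt1 −0.31 in SUS_LE against SUS, and Trmt61b −0.42 and Trit1 0.22 in SUS_LE against SED.

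Of the 12 regulators of mitochondrial biogenesis 5 were higher in each comparison. The medians of these 5 lists ran from −0.0485 to 0.0504 over the 3 comparisons. Gabpa, a subunit of nuclear respiratory factor NRF-2, had −0.37 (edgeR adjusted p = 0.155) in SUS against SED and 0.26 (0.253) in SUS_LE against SUS, and the deacetylase Sirt1 −0.23 and 0.27. Esrrb had −0.52 and the coactivator Ppargc1b −0.14 in SUS_LE against SED. The 75 nuclear genes of the respiratory chain and ATP synthase, whose products join the mitochondrial ones in the same complexes, had 62 higher in SUS than in SED (median 0.08), 50 lower in SUS_LE than in SUS (median −0.05) and 54 higher in SUS_LE than in SED (median 0.04). In the first 2 comparisons these counts lean opposite to the mitochondrial mRNAs, and in the third the same way. Of all 16106 genes tested 8033, 8105 and 8525 were higher in the 3 comparisons. Over 14731 genes fold changes correlated with GC content at 0.35, −0.38 and −0.03 (Spearman) and with length at −0.24, 0.13 and −0.13. The part of base composition and length in this lean was not tested. Atp5e (0.31) and Atp5g3 (0.17), subunits of the ATP synthase, had the smallest p in the first comparison. In the second they were Uqcrq of complex III (−0.26, edgeR adjusted p = 0.107) and Atp5d (−0.24, 0.116), and in the third Atp5d (−0.20) and Atp5g1 (−0.18).

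Outside the mitochondrial genome, the pattern over the 9 libraries most like the mean log2 CPM of the 13 mRNAs was sought among 10385 genes with a mean log2 CPM above 3. The 5 highest by Pearson correlation were Acsl3 (0.959), an acyl-CoA synthetase, Lyrm4 (0.953), which takes part in mitochondrial iron-sulfur cluster assembly, 4930447M23Rik (0.944), Zfp40 (0.931) and Ube2w (0.929), a ubiquitin-conjugating enzyme. Acsl3 stood at 182, 179 and 175 CPM in SED, 166, 176 and 162 in SUS, and 187, 189 and 199.6 in SUS_LE. As with COX1, SUS lay below and SUS_LE above SED, save that SUS 2 lay between SED 3 and SED 2. These genes were picked as the highest of 10385 over libraries that share scaling and composition, and the values are a description.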

How the data were processed

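Total RNA of ventral hippocampus from 9 mice was sequenced, 3 in each of the groups SED, SUS and SUS_LE. Per the labels, RNAiso Plus served for extraction and the CORALL RNA-seq V2 kit for the libraries. The deposited files hold whole-number counts per gene, not normalized, for 40213 genes, and every column was used. The tools fastp, STAR and Salmon and the build GRCm39 are named in the submitters' processing notes. Their versions and roles, the annotation, strand handling, collapse of molecular identifiers and any rounding are not given in the sources used here. Depth was 14172344 to 15582304 counts a library, and the number of mice limits precision more than depth for the mRNAs. Exercised libraries are numbered as in the labels.

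Tools were edgeR 4.0.16, DESeq2 1.42.0 and limma 3.58.1 in R 4.3.3, with Python 3.11.15 for sums and figures. Genes were kept by edgeR's filter on expression by group (minimum count 10), which left 16106 genes with 99.9% of counts. A robust quasi-likelihood model was fitted to all 9 libraries with TMM scaling and group as the only term, with Benjamini-Hochberg adjustment over all genes tested and a threshold of 0.05. The common biological coefficient of variation was 0.0845. The fit was also run on counts simulated with the same spread for every gene and no difference in composition between libraries. That setting does not cover the wide spread of the tRNAs, so it says nothing of the fit for them. Each library is labelled as a separate mouse, and the tests set group differences against a spread estimated between mice of a group. Sums over members and medians have no test. Groups, comparisons, members, gene lists and marker lists were chosen with earlier results of these data known.

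Each mRNA is given in every library, and tRNAs by range and count, with the 5 most counted by library. Fold changes are printed for the 4 mRNAs and 3 tRNAs of smallest p in a comparison and for ND6, and 2 genes per nuclear list and comparison. GC content and length came from GENCODE M21 transcripts (GRCm38), found by symbol for 91.5% of the genes in the fit and by identical span for the 37 mitochondrial genes. The build differs from that of the files, so no coordinates are given. Alternatives covered the test, scaling, filter, covariates, base composition and left-out libraries, and 4 kinds were added after seeing the data.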

Additional observations from a re-analysis of the deposited data

How the results depend on the processing

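No member passed edgeR in any comparison, and this held in 19 of 23 alternatives for SUS against SED, 17 of 23 for SUS_LE against SUS, 21 of 23 for SUS_LE against SED and 17 of 21 for the test among 3 groups. DESeq2 passed 2 members in SUS against SED, 6 in SUS_LE against SUS and 5 among 3 groups, and without its independent filtering 1 and 5 in the first 2 (0.329% and 0.453% of genes). With no filter on low counts edgeR passed 1, 7, 2 and 9 members in the 4 tests, with 1.1%, 1.59%, 0.808% and 2.57% of genes. With the choroid plexus score as a covariate it passed 9 in SUS_LE against SUS (ATP8, COX1, ND4 and 6 tRNAs, with 2.64% of all genes) and 3 among 3 groups (1.22%). Without the 3 libraries lowest in Ttr TrnD alone passed, 1 member each in SUS against SED, SUS_LE against SED and among 3 groups, with 0.0838%, 0.0957% and 0.18% of genes. There SUS_LE keeps 1 library, whose spread is assumed to be that of the others. Leaving out each replicate gave 0 to 3 members in SUS_LE against SUS (1 without SUS replicate 1 and 3 without SUS replicate 2, with 0.508% and 1.12% of genes) and 0 in the other tests. Why these calls differ was not tested. The median log2 fold change of mRNAs in SUS_LE against SED was 0.0354 with GC and length trends removed. ND6 reversed in SUS against SED to −0.0186 with the choroid plexus covariate, −0.0831 without the 3 libraries lowest in Ttr and −0.0802 without SUS replicate 1 (range as each replicate was left out −0.0802 to 0.365), and in SUS_LE against SED to 0.00846 without SED replicate 1 (range −0.183 to 0.00846). The median of mRNAs ranged from −0.16 to −0.07 in SUS against SED and from 0.12 to 0.21 in SUS_LE against SUS as each replicate was left out, and that of tRNAs from 0.09 to 0.43 and from −0.94 to −0.44. Without the most counted gene of each class the mRNA share was 10.4%, 9.80% and 10.9% in SED, SUS and SUS_LE, the log2 ratio of tRNA to mRNA counts in SED −9.68, and the log2 ratio of heavy to light strand counts 11.7, 11.3 and 12.0. Over all members the heavy to light ratio in SUS_LE was 9.69 without the 3 libraries lowest in Ttr, which leaves 1 library, against a mean of 9.67 with them. Of 1380 alternative values for single genes 1335 kept their direction and side of the threshold, 41 newly passed and 4 reversed. No gene had passed in the main fit, so a kept side means only that the gene still did not pass. A gene without a DESeq2 adjusted p, as the tRNAs in SUS against SED and in SUS_LE against SUS, was counted as not passing. The alternatives also reuse the same libraries, so they are not independent of each other. The labels number the mice of each group 1 to 3, but same-numbered libraries correlated at −0.12 to 0.18 and share only a number. With the replicate block 0 members passed in every comparison, and the medians were −0.11, 0.16 and 0.09 for mRNAs and 0.30, −0.64 and −0.31 for tRNAs. Depth limits the tRNAs, of which TrnC had too few counts for a test.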
